A study of Mus musculus with 19 samples.

Results

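Tumours labelled as lacking both the beta 1 and the beta 3 integrin subunit were compared with tumours of the same ErbB2 model whose integrin genes were intact. The groups were taken from the genotype label alone: 6 arrays carried the label itgb1 fl/fl itgb3 fl/fl on the NIC background, named there beta 1/3 integrin DKO, and 5 arrays carried the label NIC WT. Together they make up 11 of the 19 arrays of the series. The other 8 arrays, used here for context, were 4 labelled NIC itgb1 fl/fl (Itgb1 KO) and 4 labelled NIC itgb3 fl/fl (Itgb3 KO).

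All 19 tumours arose in MMTV-NIC mice. In this model an activated ErbB2 and Cre recombinase are made from 1 transcript under the MMTV promoter, so floxed genes are recombined in the mammary epithelial cells that express the oncogene and stay intact in fibroblasts, vessels and immune cells of the host. Flash frozen end-burden tumours were used whole, and their total RNA, purified on columns, was hybridised to a whole-transcript Affymetrix array, and 1 log2 intensity per probe set and array was deposited. The labels do not give ages, and they do not say whether tumours came from separate mice, so the p-values reflect only how these samples vary, and some of that variation may be technical. Integrins are receptors made of an alpha and a beta subunit that tie cells to the surrounding matrix. The beta 1 subunit pairs with many alpha subunits to bind collagen, laminin and fibronectin, the beta 3 subunit pairs with alpha v to bind ligands such as vitronectin, and the beta 4 subunit pairs with alpha 6 to anchor epithelial cells to laminin through hemidesmosomes. In mammary epithelium they connect the basement membrane to focal adhesion kinases and to growth factor receptors, ErbB2 among them.

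The floxed genes themselves were read first. Itgb1 had a log2 intensity of 7.93 in the lowest, 8.15 as the median and 9.20 in the highest of the labelled double knockout tumours, against 10.22, 9.83, 10.17, 10.32 and 10.26 in the 5 controls. The groups did not overlap, and the highest of the labelled double knockouts was replicate 5. The means were 8.32 ± 0.48 (SD, n = 6) and 10.16 ± 0.19 (SD, n = 5), a log2 difference of -1.84 ± 0.19 (SE) with an exact two-sided permutation p of 0.004329, or 0.012987 adjusted over the 3 genes tested this way. Itgb3 was different: the labelled double knockouts had 7.69 in the lowest, 8.20 as the median and 8.55 in the highest tumour, against 8.09, 8.23, 7.72, 8.16 and 8.41 in the controls. The 2 groups covered the same range, and the log2 difference was 0.01 with a 95% interval of -0.47 to 0.49 (exact two-sided permutation p = 0.954545). Of the 462 ways to split these 11 tumours, the smallest possible two-sided p was 0.0021645.

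The same probe set gave lower values in the 4 Itgb3 KO tumours, at 6.34, 7.31, 6.97 and 7.40, each below every control, although the difference of -1.12 did not pass over all genes (limma, adjusted p = 0.723). The labelled double knockouts stood 1.13 above those tumours on the log2 scale (limma, adjusted p = 0.0223). Itgb3 therefore went against the label, and the samples are called tumours labelled double knockout, and every direction below is drawn from that label. Erbb2, the oncogene of the model, had 9.41, 9.88 and 10.09 as lowest, median and highest in the labelled double knockouts, against 9.47, 10.28, 9.85, 10.01 and 9.62 in controls (difference -0.08, exact two-sided permutation p = 0.677489). The epithelial markers Epcam (-0.16, limma adjusted p = 0.338), Krt8 (0.29, adjusted p = 0.320) and Krt18 (0.05, adjusted p = 0.887) were at high intensity in all 11 tumours and did not pass.

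**Figure D1:**
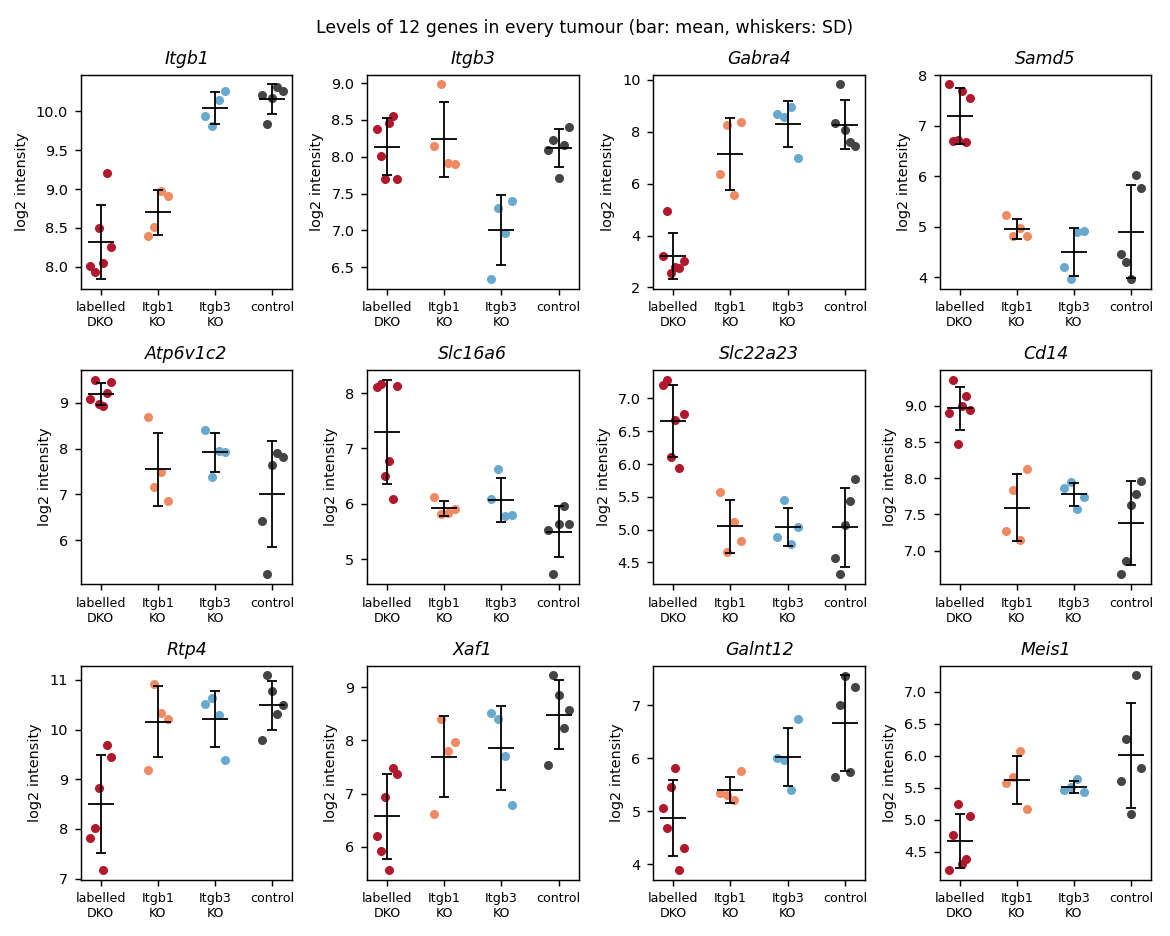
Log2 intensity of 12 genes in every tumour (1 point each) of the 4 groups, with the mean as a bar and the SD as whiskers. Itgb1 lies lower in both groups with a floxed Itgb1, Itgb3 lies lower in Itgb3 KO tumours and at the control level in tumours labelled double knockout, and Gabra4 lies lowest in all 6 tumours labelled double knockout.

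Across the array, 14231 genes had a single symbol and a value of at least 4.38, the median of the deposited table, on 4 or more arrays. In 1 limma fit over all 19 arrays, 55 of them (0.386%) passed at a Benjamini-Hochberg adjusted p of 0.05: 42 were higher in tumours labelled double knockout (0.295%) and 13 were lower (0.0913%). With each array centred on its median the split was 87 higher and 13 lower, and with quantile normalization it was 23 and 8. The 2 groups differed over whole arrays. Upper quartiles were 6.3770 to 6.4246 in tumours labelled double knockout and 6.3659 to 6.3765 in controls, with no overlap. Array medians were 4.32 to 4.34 and 4.32 to 4.46. The part of this in the excess of higher genes was not tested. At an unadjusted p of 0.05 there were 2398 genes (16.9%), and 55.9% of all genes lay above 0, with a median log2 difference of 0.03. Complete separation of the groups was found for 33 of the 42 higher and 8 of the 13 lower genes, against 1.19% and 0.597% of all genes. These genes were selected on the same values, so the excess follows from the selection and adds no support to the calls. The calls sit near the threshold: 26 of the 55 had an adjusted p within 1% of the threshold of 0.05, and with 1 tumour left out at a time between 14 genes (without labelled double knockout replicate 2 or without control replicate 1) and 125 genes (without labelled double knockout replicate 5) passed. Of the 55 calls, 11 were kept in each of the 19 fits that left out 1 tumour, and Itgb1 and Gabra4 were kept in every alternative run.

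**Figure D2:**
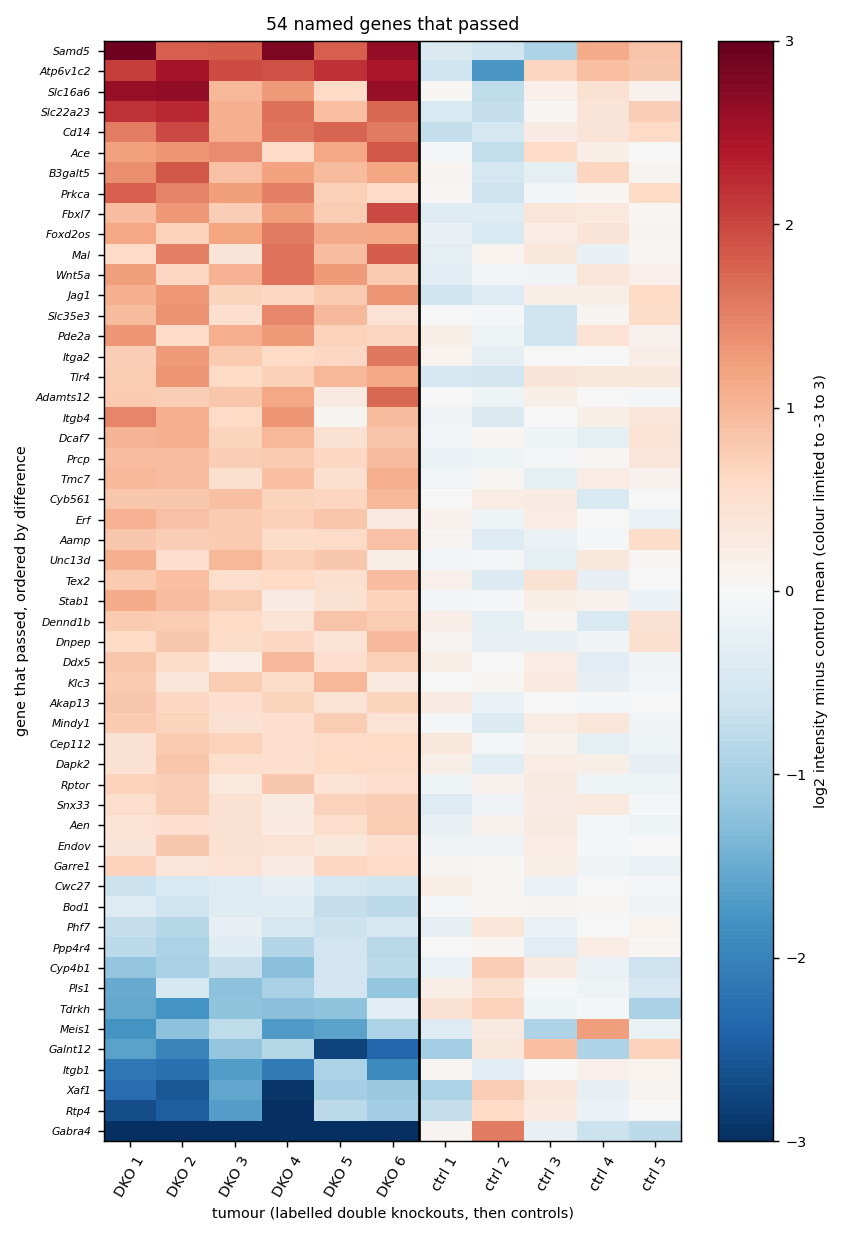
The 54 named genes that passed, ordered from the highest to the lowest log2 difference, in the 6 tumours labelled double knockout (left) and the 5 controls (right). Colour gives log2 intensity minus the control mean, limited to -3 and 3; Gabra4 is at the lower limit in all 6 tumours of the left block.

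The widest differences were in genes of quite separate functions. Gabra4, a subunit of the GABA-A chloride channel best known from the brain, fell by 5.06 on the log2 scale (SE 0.56, adjusted p = 0.000194). It had 2.56 in the lowest, 2.90 as the median and 4.94 in the highest labelled double knockout, against 8.36, 9.83, 8.05, 7.61 and 7.47 in controls. Of the 6, 5 lay under the filter level of 4.38, and with values under it raised to it the difference was -3.79. Among the other 3 GABA-A subunits tested, the epithelial subunit gene Gabrp was 1.09 higher without passing (adjusted p = 0.239). Samd5, which encodes a SAM domain protein, rose by 2.29 (SE 0.34, adjusted p = 0.00607). Its lowest, median and highest values were 6.69, 7.13 and 7.82 in tumours labelled double knockout, against 4.46, 4.30, 3.97, 6.02 and 5.76 in controls, with no overlap.

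Among the genes with the widest differences that passed as higher were 3 that encode a pump subunit or members of transporter families. Slc35e3, of another transporter family, also passed as higher, and its call was kept in 4 of the 19 fits that left 1 tumour out. Atp6v1c2, a subunit of the vacuolar proton pump, ran from 8.93 through a median of 9.14 to 9.5 in tumours labelled double knockout, against 6.42, 5.25, 7.65, 7.91 and 7.82 in controls, a log2 difference of 2.18 (adjusted p = 0.0235). Of the 19 proton pump subunits tested, it alone passed, and the list median was 0.16. Slc16a6, of the monocarboxylate transporter family, spread widely, from 6.10 through 7.44 to 8.17 against 5.52, 4.73, 5.65, 5.96 and 5.64 in controls (difference 1.80, adjusted p = 0.0308). Every labelled double knockout was above every control for it, although replicate 5 was only just so. Slc22a23, of the organic ion transporter family, had 5.95, 6.72 and 7.28 as lowest, median and highest against 4.57, 4.32, 5.08, 5.43 and 5.77 in controls (difference 1.63, adjusted p = 0.0133).

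Cd14 and Tlr4, which together sense bacterial lipopolysaccharide, passed as higher. Cd14, the co-receptor that hands lipopolysaccharide to Tlr4, had 8.47, 8.97 and 9.36 as lowest, median and highest in tumours labelled double knockout, against 6.67, 6.86, 7.63, 7.78 and 7.97 in controls (difference 1.59 ± 0.23 (SE), adjusted p = 0.00514). Tlr4 itself was higher by 0.93 (adjusted p = 0.0499). The Cd14 call was kept in each of the 19 fits that left 1 tumour out, and the Tlr4 call in 3 of them. Neither gene's groups overlapped. Of the 18 lipopolysaccharide sensing and acute-phase genes tested, 14 lay above 0 with a median of 0.26, and no other member passed. Cd14 is also a macrophage marker: 19 of the 22 macrophage markers lay above 0 (median 0.24), and Cd14 alone among them passed. The summed macrophage level, as the mean over markers of log2 intensity minus the control mean, ran from -0.31 to 0.69 in tumours labelled double knockout and from -0.33 to 0.29 in controls. Adgre1 (0.63, adjusted p = 0.105), Csf1r (0.53, adjusted p = 0.242), Tyrobp (0.43, adjusted p = 0.235) and Aif1 (0.45, adjusted p = 0.240) did not pass. With the fibroblast and macrophage means as covariates Cd14 had a difference of 1.47 and an adjusted p of 0.0522. The macrophage mean includes Cd14 itself, so this fit does not set Cd14 against a separate macrophage measure. In whole tumours, more cells of a type and more RNA per cell cannot be told apart. Chit1, a chitinase made by macrophages, stood 2.92 higher but just missed the threshold (adjusted p = 0.0504), at 5.09 to 9.88 against 5.58, 4.30, 5.10, 4.81 and 5.23.

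Besides the floxed Itgb1, 2 integrin subunits passed, Itgb4 and Itga2, both as higher. Itgb4 was higher by 0.91 (SE 0.20, adjusted p = 0.0499), with 7.92, 8.86 and 9.31 as lowest, median and highest in tumours labelled double knockout, against 7.74, 7.41, 7.86, 8.04 and 8.21 in controls. Replicate 5 of the labelled double knockouts lay inside the control range, and the call was kept in 2 of the 19 fits that left 1 tumour out. Itga2, which with beta 1 forms a collagen receptor, was higher by 0.93 (adjusted p = 0.0279), with 5.52, 5.68 and 6.49 against 5.03, 4.64, 4.90, 4.92 and 5.12 and no overlap. Of the 8 subunits binding collagen or laminin, 5 lay above 0 and 3 below: Itgb1 passed as lower, while Itga1 (-0.54, adjusted p = 0.218) and Itga6 (-0.25, adjusted p = 0.431), the partner of beta 4, did not pass. Of the 10 subunits that bind RGD ligands or fibronectin, 9 lay above 0 with a median of 0.30 and none passed; Itgb5 (0.50, adjusted p = 0.162) and Itgav (0.42, adjusted p = 0.199), the alpha v partner of beta 3 and beta 5, were examples. Of 30 focal adhesion genes 23 lay above 0 (median 0.13), none passed, and the adaptor Parva had the value 0.41 (adjusted p = 0.126).

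Signalling genes among those that passed included the secreted Wnt ligand Wnt5a, the Notch ligand Jag1 and the kinase Prkca. Wnt5a had 5.02, 5.53 and 6.01 as lowest, median and highest in tumours labelled double knockout, against 4.06, 4.31, 4.28, 4.75 and 4.55 in controls (difference 1.10, adjusted p = 0.00940). It held without each tumour. Jag1 was higher by 0.96 (adjusted p = 0.0499), and Prkca, a calcium-dependent protein kinase C, by 1.23 (adjusted p = 0.0201). Jag1 kept its call in 5 and Prkca in 15 of the 19 fits without 1 tumour. Of 30 Wnt ligands, receptors and antagonists 23 lay above 0 (median 0.16) and Wnt5a alone passed; the receptor Fzd5 had 1.15 (adjusted p = 0.0600). Of 21 Notch genes 16 lay above 0 (median 0.11) and Jag1 alone passed. Of 25 TGF-beta pathway genes 20 lay above 0 (median 0.29) and none passed, with Smurf2, a ubiquitin ligase acting on that pathway, at 0.50 (adjusted p = 0.0562). ErbB receptors, ligands and feedback genes split into 11 above and 10 below 0, and none passed; the receptor ligand Egf was 1.58 lower (adjusted p = 0.161).

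Matrix and stromal genes lay above 0 as groups, but no member of the 3 matrix lists passed. Of 25 interstitial matrix genes 24 lay above 0, with a median log2 difference of 0.51 against 0.03 over all genes, and none passed; the matricellular gene Tnc had 1.17 (adjusted p = 0.205). Of 12 basement membrane genes 11 lay above 0 (median 0.42), with perlecan, Hspg2, at 0.60 (adjusted p = 0.0664). Of 20 matrix proteases and inhibitors 19 lay above 0 (median 0.40), with Mmp14 at 0.88 (adjusted p = 0.114) and Timp1 at 1.14 (adjusted p = 0.171). Outside these lists, Adamts12, a secreted protease, passed at 0.92 (adjusted p = 0.0499). Of 17 fibroblast markers 15 lay above 0 and none passed. Their mean ran from -0.62 to 0.98 in tumours labelled double knockout and from -0.32 to 0.61 in controls, so the groups overlapped, and replicate 5 was the lowest of all 11 tumours. Endothelial markers lay above 0 for 19 of 20 (median 0.23) and pericyte markers for 13 of 14 (median 0.33), none of which passed. The part of vessels in the matrix values was not tested. With the fibroblast and macrophage means as covariates, 4 genes passed in place of 55: Samd5, Foxd2os, Itgb1 and Gabra4. A lost call there need not mean a smaller difference. Wnt5a had 1.14 (SE 0.21) in that fit against 1.10 (SE 0.18) in the main fit. Jag1 had 0.79 (SE 0.21) against 0.96 (SE 0.20). The fit also estimates more terms from the same arrays, so its count does not measure the stromal part, which was not tested. Skeletal muscle markers stood high in 1 tumour of each group, at 2.04 in replicate 2 of the labelled double knockouts and 2.12 in control replicate 2.

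**Figure D3:**
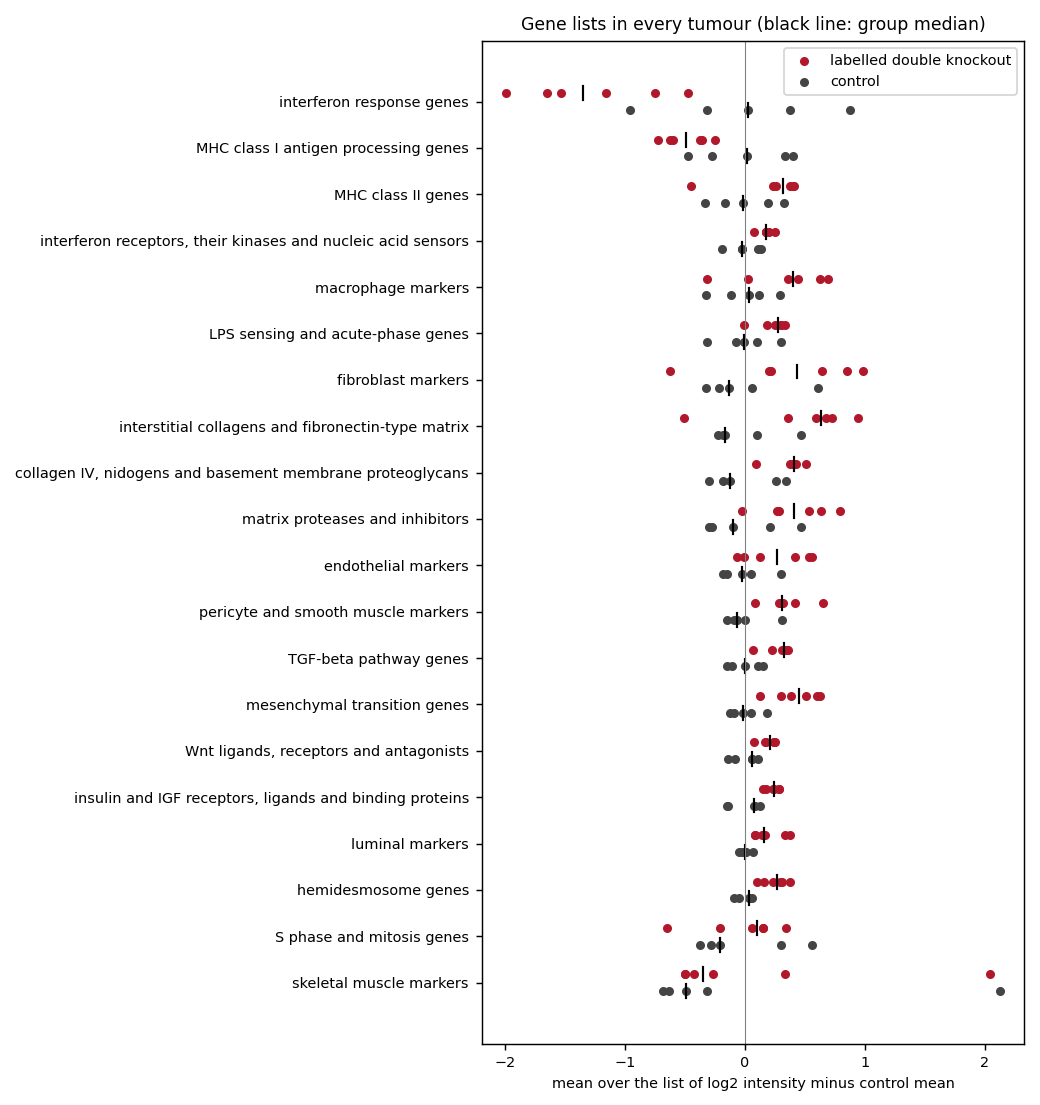
Mean over each of 20 gene lists of log2 intensity minus the control mean, with 1 point per tumour (red for tumours labelled double knockout, above; dark for controls, below) and a black line at each group's median. Interferon response genes lie furthest to the left, and matrix, fibroblast and pericyte lists lie to the right with 1 labelled double knockout near or below the controls in several.

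Of the 46 lists, interferon response genes had the median farthest from 0. These genes are switched on when type I interferon binds its receptor, many through a response element in their promoters, and they restrict viral replication. Of 32 listed genes 29 were tested, 28 lay below 0, and the median log2 difference was -1.09. Rtp4 and Xaf1 passed as lower, and 26 of the 29 (89.7%) were lower at an unadjusted p of 0.05, against 5.68% of all genes. These genes had been part of earlier results on the same arrays, so the list gives no independent support. To show what their promoters look like, the 3 genes with the smallest p among those that hold the response element core and 1 gene that passed without it are printed from RefSeq (GRCm38.p6), 250 bases before to 50 after the start, with each copy of the core (GAAA, any 2 bases, GAAA) on either strand in capitals. Rsad2 is at chr12:26456403-26456702 on the minus strand, Bst2 at chr8:71537423-71537722 on the minus strand, Ifit1 at chr19:34640639-34640938 on the plus strand and Xaf1 at chr11:72301379-72301678 on the plus strand.
Rsad2: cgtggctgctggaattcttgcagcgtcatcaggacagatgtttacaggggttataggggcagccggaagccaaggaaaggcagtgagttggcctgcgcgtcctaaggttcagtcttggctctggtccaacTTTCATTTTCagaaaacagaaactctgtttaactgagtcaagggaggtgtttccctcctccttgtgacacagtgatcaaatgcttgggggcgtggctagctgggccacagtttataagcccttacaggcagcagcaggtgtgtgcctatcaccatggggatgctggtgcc
Bst2: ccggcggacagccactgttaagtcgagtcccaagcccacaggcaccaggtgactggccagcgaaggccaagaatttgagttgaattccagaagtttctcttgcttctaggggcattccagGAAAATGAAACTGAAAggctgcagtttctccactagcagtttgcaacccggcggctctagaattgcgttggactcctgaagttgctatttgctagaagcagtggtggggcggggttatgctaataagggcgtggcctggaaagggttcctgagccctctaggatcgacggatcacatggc
Ifit1: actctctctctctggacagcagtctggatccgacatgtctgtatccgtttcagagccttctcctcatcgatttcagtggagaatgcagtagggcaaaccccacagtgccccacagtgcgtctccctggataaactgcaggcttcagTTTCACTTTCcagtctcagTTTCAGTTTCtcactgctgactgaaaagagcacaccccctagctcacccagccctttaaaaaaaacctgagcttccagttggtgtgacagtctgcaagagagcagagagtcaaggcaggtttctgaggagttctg
Xaf1: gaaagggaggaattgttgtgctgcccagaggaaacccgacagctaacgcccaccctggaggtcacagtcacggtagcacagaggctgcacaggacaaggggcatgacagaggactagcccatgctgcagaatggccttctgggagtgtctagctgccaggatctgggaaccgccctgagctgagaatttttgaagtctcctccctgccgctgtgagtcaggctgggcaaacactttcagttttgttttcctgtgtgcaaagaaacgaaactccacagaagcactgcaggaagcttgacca
The capitals in Bst2 hold 2 overlapping copies, Ifit1 holds 2 separate copies and Rsad2 holds 1. Of the 20 interferon response genes with a promoter in the table, 11 (55.0%) held the core, against 3.59% of the 11097 tested genes with a promoter and 3.99% of all 27025. The list is made of genes known to respond to interferon, so this share describes the list and not these tumours. Among genes that passed and had a promoter, 0 of 11 lower and 1 of 32 higher genes held the core. Rsad2, Bst2 and Ifit1 did not pass. The gamma-activated site, TTCNNNGAA, was in 4 of the 20 (20%), against 9.55% of all promoters. Both strands were searched, and a match describes letters in this window and not a bound site.

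Rtp4, an interferon-induced protein that helps receptors reach the cell surface, had 7.18, 8.43 and 9.70 as lowest, median and highest in tumours labelled double knockout, against 9.78, 11.09, 10.78, 10.31 and 10.49 in controls (difference -1.99 ± 0.41 (SE), adjusted p = 0.0499). Xaf1, an interferon-induced promoter of apoptosis, had 5.57, 6.57 and 7.48 against 7.54, 9.23, 8.86, 8.24 and 8.58 (difference -1.91, adjusted p = 0.0499). Neither gene's groups overlapped, and the gap was narrow, between replicates 5 and 6 of the labelled double knockouts and control replicate 1. Usp18, a brake on the interferon receptor, showed a wider but less even difference of -2.89 (adjusted p = 0.0719), with 4.99, 6.48 and 8.38 against 7.92, 10.99, 10.29, 9.10 and 9.81. Ifit1, which binds viral RNA, had -2.49 (adjusted p = 0.0884), Bst2, which tethers budding virus, had -2.22 (adjusted p = 0.0873), and Rsad2, also antiviral, had -1.64 (adjusted p = 0.0577).

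The mean of the 29 genes was -1.54, -1.65, -1.16, -1.99, -0.75 and -0.48 in labelled double knockout replicates 1 to 6, against -0.96, 0.87, 0.37, -0.32 and 0.03 in control replicates 1 to 5. Replicates 5 and 6 of the labelled double knockouts lay above control replicate 1, so the groups overlapped. Low values also occurred in the other groups: the means were -1.22, 0.43, -0.46 and -0.15 in Itgb1 KO replicates 1 to 4 and 0.22, 0.34, -0.47 and -1.25 in Itgb3 KO replicates 1 to 4. In each of these groups 1 tumour lay inside the range of the labelled double knockouts and 1 lay just above it. Neither interferon gene kept its call in every alternative; Xaf1 kept it in 3 and Rtp4 in 5 of the 19 fits without 1 tumour. MHC class I antigen processing genes, which interferon also induces, lay below 0 for 11 of 13 with a median of -0.47, and none passed; Psmb9, an immunoproteasome subunit, had -1.25 (adjusted p = 0.129). The list of interferon receptors, their kinases and nucleic acid sensors lay above 0 for 17 of 20 (median 0.17), and none passed. It also holds transcription factors, among them Irf8 at 0.70 (adjusted p = 0.0715). Its sensors did not share 1 direction: Tlr7 (0.38) and Tlr9 (0.39) lay above 0, and Tlr3 (-0.36) and Cgas (-0.31) below. The RNA sensors Ddx58 (-0.99) and Ifih1 (-1.08), which did not pass, were counted with the interferon response genes. MHC class II genes lay above 0 for 7 of 8 (median 0.20), T and NK cell markers for 7 of 10 (median 0.30), and none of either passed.

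**Figure D4:**
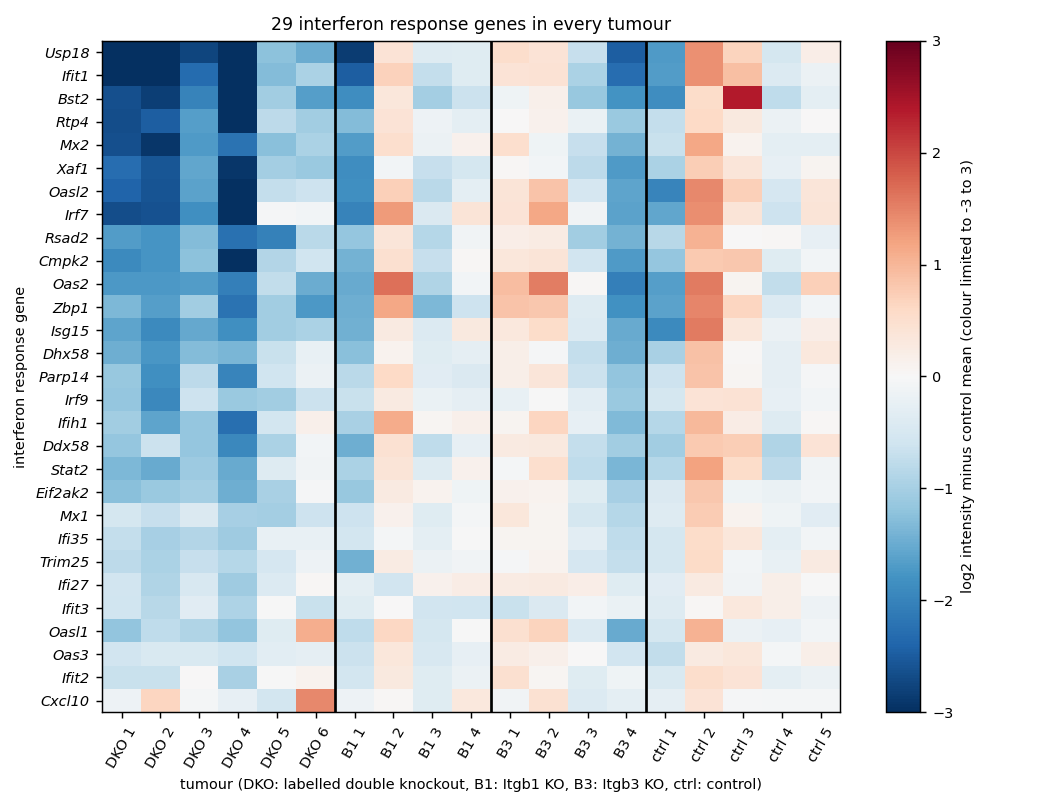
Log2 intensity minus the control mean of the 29 interferon response genes tested, in every tumour of the 4 groups, with colour limited to -3 and 3. Tumours labelled double knockout are mostly blue, replicates 5 and 6 less so, and Itgb1 KO 1, Itgb3 KO 4 and control 1 are the bluest tumours of the other groups.

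Other genes that passed as lower had no common list. Galnt12, which starts mucin-type O-glycan chains, had 3.89, 4.87 and 5.81 against 5.64, 7.0, 7.56, 5.74 and 7.35 in controls (difference -1.79, adjusted p = 0.0499), with 1 labelled double knockout inside the control range. B3galt5, which extends glycan chains with galactose, was higher by 1.25 (adjusted p = 0.0201), and the 24 glycosyltransferases tested split into 11 above and 13 below 0. Meis1, a homeobox transcription factor, had 4.22, 4.58 and 5.25 against 5.61, 6.26, 5.09, 7.25 and 5.80 (difference -1.34, adjusted p = 0.0499). Galnt12 and Meis1 each kept the call in 4 of the 19 fits without 1 tumour. Tdrkh, a Tudor protein of the piRNA pathway, was lower by 1.23, Pls1, an actin bundling protein, by 0.99, and the cytochrome Cyp4b1 by 0.91. Tdrkh and Cyp4b1 had adjusted p values of 0.0499 and Pls1 of 0.0308. Of 26 S phase and mitosis genes 13 lay above 0, with Cdk1 at -0.28 (adjusted p = 0.498) and Top2a at -0.29 (adjusted p = 0.600).

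Genes that passed as higher were unevenly placed along the genome. Of the 42, 12 lay on chromosome 11 and all 12 followed Itgb3 in the order of the GRCm38.p6 gene table. Of the 224 tested genes after Itgb3, 186 (83.0%) lay above 0 with a median log2 difference of 0.26, and 5.36% passed, against 0.386% of all genes. Of the 949 tested genes before Itgb3, 409 (43.1%) lay above 0, the median was -0.04, and the 3 that passed (Meis1, Bod1 and Xaf1) were lower. The nearest that passed were Cyb561, Ace and Dcaf7, the 7th, 8th and 9th tested genes after Itgb3, and the farthest was Rptor, the 166th. Ace, the enzyme that makes angiotensin II, had 8.71, 9.41 and 10.01 in tumours labelled double knockout, against 8.08, 7.40, 8.70, 8.34 and 8.15 in controls (difference 1.26, adjusted p = 0.0308). Prkca, Slc16a6, Itgb4, Tex2, Ddx5, Cep112, Unc13d and Endov completed the set.

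The shift was present in each tumour of the group. The median over the 224 genes, as log2 intensity minus the control mean, was 0.34, 0.40, 0.18, 0.30, 0.11 and 0.17 in labelled double knockout replicates 1 to 6, against -0.06, 0.05, 0.03, -0.02 and 0.02 in the controls. The groups did not overlap, and the lowest was replicate 5, which also had the highest Itgb1. Among single knockout tumours, Itgb1 KO replicate 1 had 0.15 and the other 7 ran from -0.11 to 0.02. For the 949 genes before Itgb3 the labelled double knockouts ran from -0.13 to 0.03 and the controls from -0.04 to 0.05. The split was placed at Itgb3, and where the shift begins was not estimated. Over the 6 tested genes between Itgb3 and Cyb561 the groups overlapped and none passed. There the labelled double knockouts ran from -0.002 to 0.30 and the controls from -0.17 to 0.067. Over whole chromosomes the median difference ran up to 0.21 (chromosome 1, with 3 of 806 genes passing) and down to -0.12 (chromosome 13). The whole-chromosome values of single tumours had the tumour's own median over all genes subtracted. The values before and after Itgb3, and the median differences, did not. The overlap below therefore cannot be set against the lack of overlap after Itgb3. On the subtracted scale the groups overlapped on chromosomes 1 and 13. Chromosome 1 ran from 0.095 to 0.24 in tumours labelled double knockout and from -0.079 to 0.14 in controls. Chromosome 13 ran from -0.25 to -0.018 in tumours labelled double knockout and from -0.040 to 0.040 in controls. Itgb3 KO tumours had 0.097 to 0.15 on chromosome 1. Chromosome 7 held 8 of the genes that passed as higher, with a median difference of 0.12, and on the subtracted scale the groups overlapped there too. It had 1159 tested genes, of which 0.69% passed, against 0.386% of all genes. What produced the chromosome 11 difference was not tested.

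**Figure D5:**
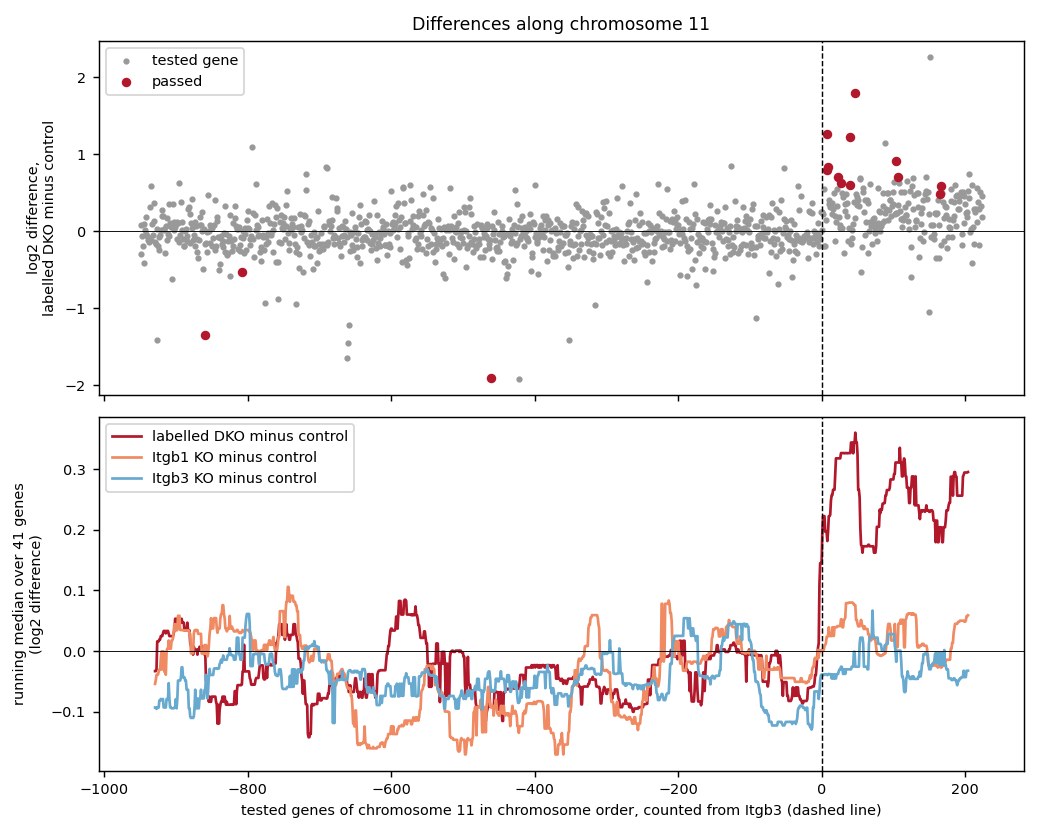
Log2 difference of labelled double knockout minus control for each tested gene of chromosome 11, in gene order from Itgb3 (dashed line), with genes that passed in red (top), and the running median over 41 genes for each knockout group minus control (bottom). The line for tumours labelled double knockout rises near Itgb3 and then stays above 0. A window of 41 genes cannot place where the rise begins. The median over all 224 genes after Itgb3 is 0.26, and the medians of the single knockout groups there are 0.03 and -0.03.

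The single knockout groups were set against the tumours labelled double knockout in the same fit, to see which differences were not shared with them. Against Itgb1 KO 3 genes passed (0.0211%), 2 higher (0.0141%) and 1 lower (0.00703%): Samd5 was higher by 2.24 (adjusted p = 0.0327), Gabra4 was lower with a difference of -3.93 (adjusted p = 0.0185), and the small RNA Snord123 was higher. Samd5 had 5.23, 4.82, 4.97 and 4.81 in Itgb1 KO tumours, and all 6 labelled double knockouts were above these. Against Itgb3 KO 408 genes passed (2.87%), 338 higher (2.38%) and 70 lower (0.492%), or 1173 and 53 with arrays centred. These 2 groups also differed over whole arrays. Array medians were 4.41 to 4.48 in Itgb3 KO and 4.32 to 4.34 in labelled double knockouts, and upper quartiles 6.35 to 6.36 and 6.38 to 6.42. The part of this in the count was not tested. Besides Samd5, the highest differences that passed against Itgb3 KO were Chit1 (2.72), the membrane carboxypeptidase Cpm (2.69), the cytokine receptor subunit Il18r1 (2.0) and the desmosomal cadherin Dsg3 (1.79). The lowest were Gabra4 (-5.09), Dcpp2 (-3.66), Rragd, a GTPase of the mTORC1 amino acid sensing pathway (-1.76), Itgb1 (-1.72) and Rtp4 (-1.70). Il18r1 had 7.40 in the lowest of the labelled double knockouts, against 6.10, 5.36, 5.42 and 6.14 in Itgb3 KO tumours. Itgb1 did not pass against Itgb1 KO (difference -0.38, adjusted p = 0.463). For the single knockouts against control the fit gave 1 gene (Itgb1, lower in Itgb1 KO, 0.00703%) and, for Itgb3 KO, 0 genes. For Itgb3 KO, 874 of the 14231 genes had an unadjusted p under 0.05 in limma. With no difference in any gene, a share of about 0.05 would fall under that p. All these comparisons share tumours, so they are given side by side only. Leaving out 1 tumour moved the first count between 0 and 24 (24 without labelled double knockout replicate 5) and the second between 56 (without Itgb3 KO replicate 1) and 459 (without control replicate 2).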

How the data were processed

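Normalized log2 intensity per probe set was deposited by the authors for 19 arrays and 41345 probe sets. Per the submitters' processing notes, the normalizing software was Affymetrix Expression Console, with no version. How background was corrected and probes were summarized is not given in the sources used. The values ran from 0.54 to 13.73 and array medians from 4.32 to 4.48. The closest pair of arrays correlated at 0.984, so none was a duplicate. The array count limits precision, and no batch was given.

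Of the probe sets 23521 had 1 gene symbol, 1814 several and 16010 none. A gene was kept where 4 or more arrays had at least 4.38, the table's median, using the probe set with the highest mean, which left 14231 genes, 14152 of them with an Entrez ID in the GRCm38.p6 table used for gene order. Differences were fitted with limma 3.58.1 (lmFit, eBayes) in R 4.3.3, over all 19 arrays with 1 mean per group (15 residual and 18.7 moderated degrees of freedom); p-values were two-sided and Benjamini-Hochberg adjusted across the genes tested, and the script was tested on simulated data. Itgb1, Itgb3 and Erbb2 were also compared by exact permutation. Of 872 genes on 46 lists, 724 were tested, 89 were under the filter and 59 had no probe set with 1 symbol.

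Groups, lists and tests were chosen with earlier results of these data known. Named genes are those that passed (except predicted genes, clones and small RNAs), up to 4 members per list with the smallest p in the direction of its median, and the 5 highest and 5 lowest that passed against each single knockout group. From these, the list members described were picked after their values were seen. Itga1, Itga6, Gabrp, Egf, Usp18, Ifit1, Bst2, Krt8, Krt18, Epcam, Pecam1, Csf1r and Snord123 fall outside the rule and were likewise chosen after their values were seen. The same holds for the sensors Tlr3, Cgas, Ddx58 and Ifih1. Alternatives changed the scaling, filter, probe set choice, samples, weights, covariates and test; leaving out labelled double knockout replicate 5 and control replicate 1 together was added after seeing the data.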

Additional observations from a re-analysis of the deposited data

Results flagged for a closer look

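In 422 groups of values checked, the highest or lowest tumour lay far from the rest of its group in 24, and chance takes about 1 in 20 groups, so the number is near what chance gives. No explanation was tested.

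Replicate 5 of the tumours labelled double knockout was the low one for Col14a1 (5.24), Mmp14 (7.59), Cdh11 (4.98), Cxcl14 (6.54), Galnt9 (4.15) and the basement membrane list (mean 0.093). Replicate 2 was the high one for Endov (6.74), Gabra4 (4.94) and the skeletal muscle list (2.04), and the low one for the list of G1 cyclins and p53 targets (0.070). Replicate 3 was low for Itga7 (4.64), replicate 4 was high for Itga1 (7.32) and low for the proton pump list (-0.12), and replicate 6 was low for the MHC class II list (-0.45).

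Among controls, replicate 1 was low for Itgb5 (8.89), Prkcb (4.80) and Aif1 (4.90). Control replicate 2 was low for Ltf (4.58) and high for Galnt9 (4.74) and the skeletal muscle list (2.12). Control replicate 3 was low for Fap (4.21) and Krt18 (10.98), control replicate 4 was high for Pecam1 (8.08), and control replicate 5 was high for the protein kinase C list (0.17).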

How the results depend on the processing

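The count of 55 genes depended on most settings. It was 100 with arrays centred, 31 with quantile normalization, 27 with no filter, 2 in a fit on the 11 arrays compared, 31 with array weights, 26 with an intensity trend and robust moderation, 17 with the plain t statistic of the same fit and 4 with fibroblast and macrophage means as covariates. It ran from 14 to 125 with 1 tumour left out, and without labelled double knockout replicate 5 and control replicate 1 together it was 64. The count against Itgb1 KO ran from 0 to 24 with 1 tumour left out. It was 0 without labelled double knockout replicates 1 or 4 or Itgb1 KO replicates 2 or 4. There limma gave 1429 to 1750 of the 14231 genes at an unadjusted p of 0.05. The count against Itgb3 KO ran from 56 to 459 and was 1226 with arrays centred. The fit on 11 arrays could not give these 2 counts, since it holds no single knockout.

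The difference of Itgb3 changed sign around 0: it was -0.041 with quantile normalization, -0.025 with array weights, -0.088 to 0.10 with 1 tumour left out and -0.078 without the pair. Erbb2 ran from -0.17 to 0.033 and Krt18 from -0.071 to 0.14 with 1 tumour left out; Krt18 was -0.065 with the covariates, and Top2a was 0.067 without the pair. None of the 4 passed in the main fit.

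List medians moved as follows. With the covariates they were 0.083 for integrin subunits binding collagen or laminin, 0.045 for leukocyte integrins, 0.082 for Wnt genes and 0.075 for insulin and IGF genes, and the last had 0.16 with quantile normalization. Without the pair they were -0.70 for MHC class I, 0.080 for Wnt genes and 0.14 for G1 cyclins and p53 targets. With 1 tumour left out, the ranges were 0.13 to 0.23 for interferon receptors and sensors, 0.0074 to 0.14 for ErbB genes, 0.16 to 0.25 for insulin and IGF genes, 0.13 to 0.27 for G1 cyclins and p53 targets and -0.11 to 0.085 for glycosyltransferases. The interferon median stayed below 0, from -1.39 to -0.91. The causes were not tested. No paired analysis was possible because the labels give no replicate numbers; replicates are numbered in accession order.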

Other observations

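Luminal markers split into 8 above and 6 below 0 (median 0.10); Aldh1a3 had 0.76 (adjusted p = 0.0873) and the mucin Muc1 0.79 (adjusted p = 0.132). Milk protein genes lay above 0 for 11 of 15 (median 0.23), with lactoferrin, Ltf, at 1.65 (adjusted p = 0.121). Ltf is also a neutrophil marker, and 8 of the 11 neutrophil markers were under the filter. Of 19 keratin, desmosome and tight junction genes 12 lay above 0, with the desmosomal gene Pkp1 at 1.33 (adjusted p = 0.146). Among 22 cyclin, cyclin inhibitor and p53 target genes 15 lay above 0, and Phlda3 had 0.70 (adjusted p = 0.0577).

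Of 21 YAP and TAZ pathway genes 17 lay above 0 (median 0.16); Ptpn14, which binds YAP, had 1.01 (adjusted p = 0.0714). Of 22 insulin and IGF genes 17 lay above 0 (median 0.22), and Igfbp4 had 0.86 (adjusted p = 0.0583). Glycolysis and hypoxia genes split into 10 above and 14 below 0 (median -0.07). No gene of these luminal, milk, neutrophil, keratin, cyclin, YAP, insulin and glycolysis lists passed in limma with Benjamini-Hochberg adjustment.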
